A study of Mus musculus with 6 samples.

Results

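ERK feedback genes were compared between astrocytes of the upper and the deep layers of the mouse somatosensory cortex. The set comprised 3 Sprouty genes (Spry1, Spry2, Spry4), 3 Spred genes (Spred1, Spred2, Spred3), the phosphatase gene Dusp6 and 3 Etv genes (Etv1, Etv4, Etv5). They were found by gene symbol, and all 10 were present among the 43383 rows of the deposited expression table, 1 row each. Upper-layer astrocytes (ULAs) and deep-layer astrocytes (DLAs) were GFP-positive cells sorted from layers II to IV and from layers V and VI of 4-week-old male Aldh1l1-eGFP mice, with 1 library for each layer of 3 brains. All 6 libraries share this genotype, the labels list no treatment, and GFP is driven by regulatory sequence of the pan-astrocyte gene Aldh1l1. Astrocytes of layer I and of the corpus callosum were trimmed away before the sort, and the border between layers IV and V is only partly represented. Values are RPKM (reads scaled to the length of the mRNA and the depth of the library), which allow levels of different genes to be compared.

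When a growth factor such as an FGF binds its receptor, Ras is loaded with GTP and the kinases Raf, MEK and ERK are activated in turn. ERK signaling raises transcription of its own inhibitors. Sprouty proteins act near the receptor and Ras, Spred proteins hold Ras in check together with neurofibromin, and DUSP6 removes the activating phosphates from ERK in the cytoplasm. ETV1, ETV4 and ETV5 form the PEA3 group of ETS transcription factors, whose genes are widely used as readouts of FGF signaling. mRNA levels of these genes are often read as a record of pathway activity, but ERK phosphorylation itself was not measured in these libraries.

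The 10 genes spanned a wide range of levels in sorted astrocytes. Dusp6 was the most abundant, between 84.37 and 164.72 RPKM over the 6 libraries, with no overlap with the next gene. Etv4 followed at 36.01 to 49.42 RPKM, then Spry2 at 23.68 to 38.66, Etv5 at 19.01 to 26.15, Spred1 at 13.01 to 19.63 and Spred2 at 9.1 to 15.58. Each of these genes overlapped in range with its neighbor, although within a library Etv4 exceeded Spry2 in 5 of 6, Spry2 exceeded Etv5 in 5 of 6, Etv5 exceeded Spred1 in 6 of 6, and Spred1 exceeded Spred2 in 6 of 6. Spry4 (5.18 to 7.35 RPKM), Spry1 (2.4 to 10.9) and Etv1 (4.22 to 6.32) were not separable by level. Spry4 exceeded Spry1 in 4 of 6 libraries and Spry1 exceeded Etv1 in 3 of 6. Spred3 had the lowest mean, at 1.98 to 3.06 RPKM, and was the lowest gene in 5 of 6 libraries, Spry1 being lower in the DLAs of brain 1. Because all 10 genes had a mean of at least 1 RPKM over the 6 libraries, the filter used for testing removed none of them.

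**Figure D1:**
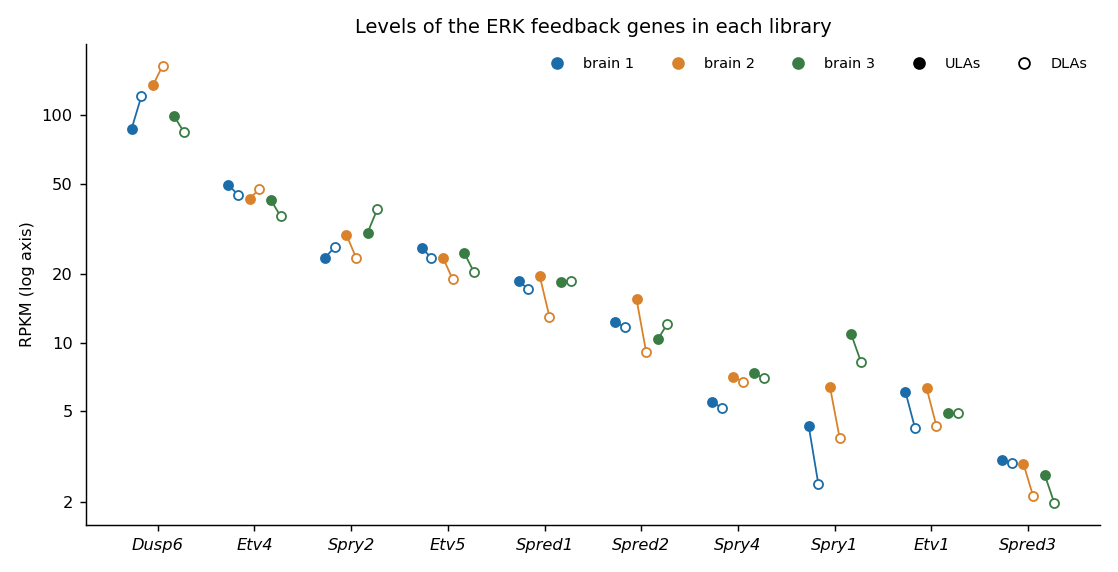
RPKM (log axis) of the 10 ERK feedback genes, ordered by mean level, in each library. Filled circles are ULAs, open circles are DLAs, colors are brains and lines join the layers of 1 brain. Dusp6 lies above 84 RPKM in every library and Spred3 below 3.1, and the brains stand further apart than the layers for Spry1.

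None of the 10 genes passed the comparison of layers, in which log2(RPKM + 1) was fitted with brain and layer as terms in limma and p-values were adjusted over all 13999 rows with a mean of at least 1 RPKM. That is 0 of 10 higher in ULAs and 0 of 10 higher in DLAs at an adjusted p under 0.05, where 0.714% and 0.914% of all rows passed. At an unadjusted p under 0.05, 1 gene (Spry1) was higher in ULAs and 0 were higher in DLAs, against 5.64% and 10.8% of all rows. The log2 fold changes (ULAs minus DLAs) ran from −0.17 for Dusp6 to 0.54 for Spry1, with a median of 0.20, where the median over all rows was −0.03. Most of the genes leaned toward ULAs: 8 of 10 had a fold change above 0, as did 45% of all rows. Of the 10 genes, 5 (Spry1, Spry4, Spred3, Etv1 and Etv5) were higher in ULAs in 3 of 3 brains, against 15.2% of all rows, and 0 were higher in DLAs in 3 of 3 brains, against 23.2%. In 2 genes, Etv1 and Etv5, the lowest ULA value lay above the highest DLA value, which held for 6.59% of all rows, and 0 genes showed the opposite, which held for 9.27%. These counts describe genes of 1 pathway measured in the same 3 brains, and the members were chosen with results on these data known, so they were not tested as a set.

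The intervals limit how large a layer difference can be. Across the 10 genes the lowest bound of the 95% intervals was −0.47 and the highest was 0.84 on the log2(RPKM + 1) scale, so a change of 1 on that scale, in either direction, lies outside the interval of each gene. This scale understates changes of genes with low RPKM, most of all for Spred3. Of the 10 genes, 9 lay within 0.5 of 0, as did 95.9% of all rows.

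**Figure D2:**
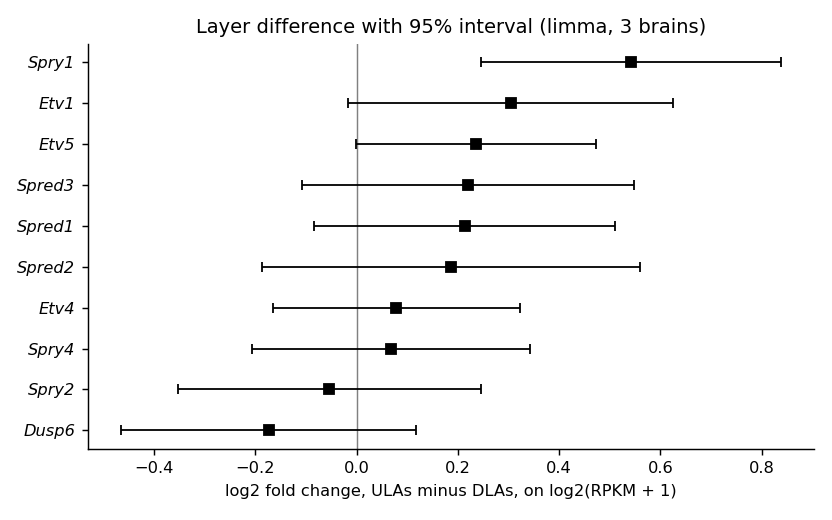
Log2 fold change (ULAs minus DLAs, on log2(RPKM + 1)) of each gene as a square, with its 95% interval from limma over 3 brains as a bar. Spry1, at 0.54, has an interval that stays above 0, and the other 9 intervals include 0.

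Spry1 encodes a Sprouty inhibitor of receptor tyrosine kinase signaling. The gene (NM_011896) has 3 exons on the plus strand of chromosome 3, from 37538872 to 37543521 in the mm9 coordinates of the table. Brains 1, 2 and 3, in this order here and for each gene below, had 4.33, 6.42 and 10.9 RPKM of Spry1 in ULAs and 2.4, 3.83 and 8.28 in DLAs. ULAs were higher in every brain, but the DLAs of brain 3 exceeded the ULAs of brains 1 and 2, so the layers overlapped. Means were 7.22 ± 3.36 (SD, n = 3) and 4.84 ± 3.07 RPKM, and the within-brain ratio was 1.60 ± 0.253. Spry1 had a fold change of 0.54 on the log2 scale (SE 0.13, 95% interval 0.25 to 0.84, adjusted p = 0.0865, limma). Leaving out brain 3 gave an adjusted p of 0.0239 at a log2 fold change of 0.63, and when only rows with a RefSeq accession were tested (11475 rows, a setting chosen after the values were seen) it was 0.0434. A fit that ignored the brains gave 0.652, and these were the lowest and the highest values among the alternatives.

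Spry1 differed more between brains than between layers. The mean of both layers on the log2 scale was lowest in brain 1 (2.09) and highest in brain 3 (3.39), a range of 1.30, and 99% of the tested rows had a smaller range between brains. The typical row had a range of 0.25. Brain 3 was also the brain with the most oligodendrocyte RNA. The summed RPKM of 10 oligodendrocyte markers was 93.35, 89.87 and 187.39 in ULAs and 182.85, 209.45 and 294.26 in DLAs. This sum was higher in DLAs in each brain, although the single marker Cnp was not in brain 3, whereas Spry1 was higher in ULAs in each brain. The part of oligodendrocyte RNA in the levels of Spry1 was not tested.

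The related Spry2 gene (NM_011897), with 2 exons on the minus strand of chromosome 14 from 106291164 to 106296036 (mm9), was the main Sprouty mRNA. ULAs had 23.68, 29.84 and 30.5 RPKM and DLAs had 26.35, 23.71 and 38.66. Spry2 was higher in ULAs only in brain 2, and the layers overlapped. The layer difference on the log2 scale was −0.05 (SE 0.13, 95% interval −0.35 to 0.25, adjusted p = 0.88), and its sign turned under quantile normalization (0.026) and without brain 3 (0.086). Spry4, another inhibitor of the Ras to ERK route, was at 5.52, 7.1 and 7.35 RPKM in ULAs and at 5.18, 6.76 and 6.98 in DLAs. Its ratio was nearly the same in each brain, 1.06 ± 0.00819, and within counting error of 1 in 3 of 3 brains. The log2 fold change of Spry4 was 0.07 (95% interval −0.21 to 0.34, adjusted p = 0.828), and it was −0.038 after a correction for mRNA length.

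The makeup of Sprouty mRNA can be read within a library, where scaling between libraries has no effect. Spry1 made up 12.9%, 14.8% and 22.4% of the summed Sprouty RPKM in ULAs and 7.07%, 11.2% and 15.4% in DLAs. The share was higher in ULAs in 3 of 3 brains, with means of 16.7 ± 5.0% and 11.2 ± 4.14%. A 2-sided exact permutation test over the 3 pairs gave p = 0.25, the smallest it can give. Spry2 had a lower share in ULAs in each brain, though by little in brain 2 (68.8% against 69.1%), with means of 67.3 ± 4.23% and 72.8 ± 4.38%. The share of Spry4 was 16.5%, 16.4% and 15.1% in ULAs and 15.3%, 19.7% and 12.9% in DLAs, lower in ULAs only in brain 2. The summed Sprouty RPKM itself was higher in ULAs in 1 of 3 brains.

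Spred proteins carry an EVH1 domain besides the Sprouty-related domain. Spred1 (NM_033524, chromosome 2, 116947186 to 117005072 in mm9, 7 exons) had 18.61, 19.63 and 18.54 RPKM in ULAs and 17.32, 13.01 and 18.75 in DLAs. Spred2 (NM_033523, chromosome 11, 19824445 to 19922600 in mm9, 6 exons) was at 12.3, 15.58 and 10.36 RPKM in ULAs and at 11.8, 9.1 and 12.15 in DLAs. For both genes the DLAs of brain 2 were lowest of the 6 libraries and the ULAs of brain 2 were highest, while brains 1 and 3 differed little between layers or in the opposite direction. The ratios in brain 2 were 1.51 for Spred1 and 1.71 for Spred2, against 0.989 and 0.853 in brain 3. The DLAs of brain 2 were also the most shallowly sequenced library, with 766 reads of Spred1 and 514 of Spred2. The 95% counting intervals of the brain 2 ratios were 1.38 to 1.65 for Spred1 and 1.54 to 1.90 for Spred2. The part of depth in these ratios was not tested. For Spred1 the fitted layer difference was 0.21 (SE 0.13, 95% interval −0.08 to 0.51, adjusted p = 0.457). That of Spred2 was 0.19 (SE 0.17, 95% interval −0.19 to 0.56, adjusted p = 0.622). Without brain 2 these became 0.041 and −0.078, and the call did not change.

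Spred3 (NM_182927, chromosome 7, 29943848 to 29953666 in mm9, 6 exons) is the least studied Spred gene and was the least abundant of the 10. Its RPKM was 3.06, 2.95 and 2.64 in ULAs and 2.96, 2.13 and 1.98 in DLAs, resting on 170 to 319 reads per library. ULAs were higher in 3 of 3 brains, with an overlap between layers. Its fold change of 0.22 (log2, SE 0.15, 95% interval −0.11 to 0.55) had an adjusted p of 0.491. The makeup of Spred mRNA did not separate the layers, with Spred1 at 55.0 ± 3.68% of the summed Spred RPKM in ULAs and 54.9 ± 1.85% in DLAs, and Spred3 at 8.37 ± 0.639% and 8.01 ± 1.74%.

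Dusp6 (NM_026268), with 3 exons on the plus strand of chromosome 10 from 98725865 to 98730123 (mm9), encodes the ERK-selective phosphatase MKP-3. ULAs had 87.29, 135.24 and 98.93 RPKM and DLAs had 120.91, 164.72 and 84.37. DLAs were higher in brains 1 and 2 and ULAs were higher in brain 3, so the direction was not shared by the brains. With 5970 to 9692 reads per library the ratios of 0.722, 0.821 and 1.17 each had a 95% counting interval that left out 1. The fitted difference was −0.17 (SE 0.13, 95% interval −0.47 to 0.12, adjusted p = 0.542). Without brain 3 it was −0.37 and passed (adjusted p = 0.0468). Without brain 1 it was −0.028, with an adjusted p of 0.992, the highest among the alternatives. The other dual-specificity phosphatases listed for this pathway, Dusp4, Dusp5, Dusp7 and Dusp9, did not exceed 0.46 RPKM in any library, while Dusp1, a related phosphatase counted here with the immediate early genes, was at 40.58 to 91.99 RPKM.

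Dusp6 also varied between brains, with a range of 0.70 on the log2 scale that was larger than in 94% of the tested rows. Its libraries ranked much like those of the immediate early genes, a list of 16 genes such as Fos and Jun that respond within minutes to stimulation and to cell dissociation. The summed RPKM of that list was 70.28, 125.03 and 101.01 in ULAs and 101.93, 136.97 and 90.9 in DLAs. Like Dusp6, it was highest in brain 2 in both layers and higher in ULAs only in brain 3. Across the 6 libraries, which share 3 brains, the log2 values of Dusp6 and of this sum had Pearson's r = 0.89 (Spearman's rho = 0.94), and r = 0.83 (rho = 0.77) when Dusp1, which gave most of the sum, was left out. Without Dusp1 the sum was still highest in brain 2 in ULAs (29.7, 43.04 and 37.01). In DLAs it was then highest in brain 1 (45.32, 44.98 and 36.45). The pairing of Dusp6 with this list was chosen after the values were seen. What these genes share with Dusp6 was not tested.

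The ETS factors of the PEA3 group were led by Etv4 (NM_008815, chromosome 11, 101631056 to 101646624 in mm9, 13 exons). ULAs had 49.42, 43.03 and 42.35 RPKM of Etv4 and DLAs had 44.71, 47.29 and 36.01. The layers overlapped and brain 2 ran opposite to brains 1 and 3. Its log2 fold change was 0.08 (SE 0.11, 95% interval −0.16 to 0.32, adjusted p = 0.767). It was 0.0041 without brain 3, 0.185 without brain 2 and 0.183 under quantile normalization, and passed in no alternative. Etv4 made up 59.4 ± 0.954% of the summed Etv RPKM in ULAs and 62.4 ± 4.18% in DLAs, and Etv5 made up 32.9 ± 1.29% and 30.9 ± 3.49%.

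Etv5 (NM_023794, chromosome 16, 22381386 to 22439643 in mm9, 13 exons) had 26.15, 23.6 and 24.8 RPKM in ULAs and 23.58, 19.01 and 20.43 in DLAs. The 3 ULA values lay above the 3 DLA values, though by a margin of only 0.02 RPKM between the closest ones, and the ratio was 1.19 ± 0.0699. Etv5 was the one gene besides Spry1 whose ratio exceeded 1 beyond counting error in all 3 brains. Its log2 fold change was 0.24 (SE 0.11, 95% interval −0.00075 to 0.47, unadjusted p = 0.0506, adjusted p = 0.306, limma).

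Etv1 (also called ER81), with 14 exons on chromosome 12 from 39506845 to 39594802 (mm9), is best known in cortex as a marker of layer V neurons. In the sorted astrocytes it was at 6.11, 6.32 and 4.94 RPKM in ULAs and at 4.22, 4.33 and 4.9 in DLAs. The layers did not overlap, but in brain 3 the values were almost equal. Etv1 differed by 0.30 on the log2 scale (SE 0.14, 95% interval −0.02 to 0.63, adjusted p = 0.329). Of 10 general neuron markers, 1 (Snap25) reached a mean of 1 RPKM, and the sum of all 10 was 7.29 to 7.68 RPKM in ULAs and 5.27 to 7.9 in DLAs. Rbfox3 and the other markers of that list stayed below that mean. Of 8 markers of deep-layer neurons, 2 were tested and 0 passed, and their sum was 21.6 to 28.5 RPKM in ULAs and 19.1 to 31.8 in DLAs. Among them Fezf2, picked out after its values were seen, was near the level of Etv1 and higher in DLAs in each brain. It was at 3.99, 3.32 and 7.36 RPKM against 4.14, 5.75 and 8.97 (log2 fold change −0.31, adjusted p = 0.333). The other tested marker, Tle4, gave most of the sum and was higher in ULAs in 2 of 3 brains. Tle4 was at 18.4, 17.63 and 20.57 RPKM against 18.37, 13.12 and 22.06 (log2 fold change 0.10, adjusted p = 0.735). Bcl11b was listed at 0. The part of neuronal RNA in the levels of Etv1 was not tested. The sum of the 3 Etv genes was higher in ULAs in 3 of 3 brains, at 81.68, 72.95 and 72.09 RPKM against 72.51, 70.63 and 61.34.

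The within-brain ratios were also set against counting error. Of the 10 genes, 4 (Spry2, Spred2, Dusp6 and Etv4) had at least 1 brain above and 1 brain below a ratio of 1 by more than the 95% counting interval, as did 22.7% of all rows. Spry2, for example, had ratios of 0.899, 1.26 and 0.789. Spry1 and Etv5, 2 of 10, were above 1 in each brain by this measure, against 5.41% of all rows, and 0 were below 1 in each brain, against 8.53%. Spry4 was within the interval in each brain. The intervals cover counting error only. They leave out the spread that amplification and library preparation add, so a ratio outside its interval is no test of a difference between brains or layers.

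**Figure D3:**
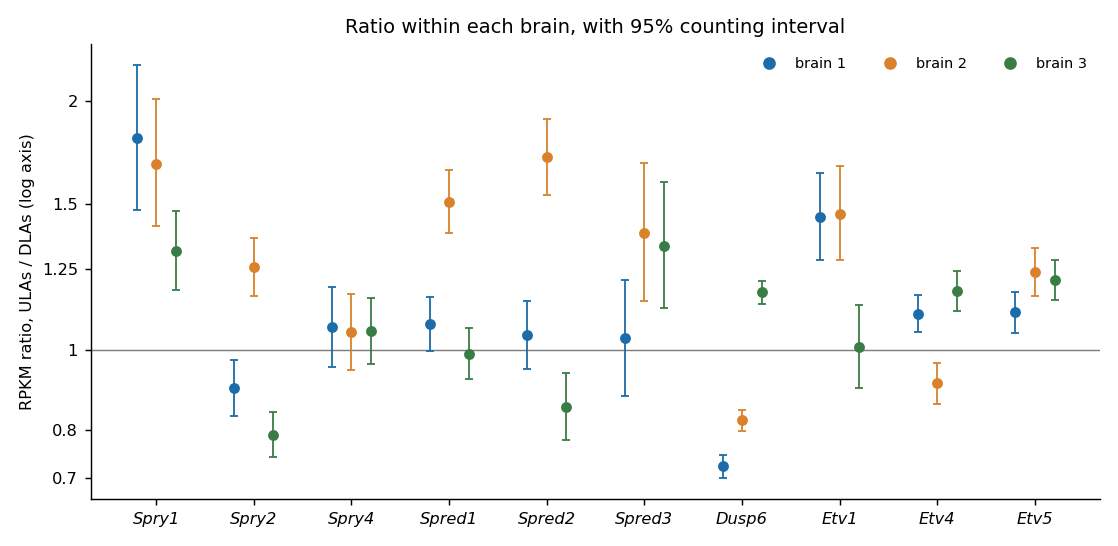
RPKM in ULAs divided by RPKM in DLAs (log axis) for each gene and brain, with 95% exact counting intervals as bars. Points of Spry1 lie above 1, the lowest at 1.32, whereas those of Dusp6 lie at 0.722, 0.821 and 1.17 on either side of 1.

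ETS factors, including those of the PEA3 group, bind DNA around the letters GGAA, so promoters of ERK feedback genes are of interest as sites where they may act. RefSeq promoters on GRCm38.p6, from 250 bases before to 50 bases after the annotated start, were matched for 8 of the 10 genes (10 starts). Printed below in capitals are GGAA and its complement TTCC in the promoters of the gene with the largest layer difference (Spry1), of its most abundant relative (Spry2) and of the most abundant gene (Dusp6).
Spry1, chr3:37639697-37639996, plus strand: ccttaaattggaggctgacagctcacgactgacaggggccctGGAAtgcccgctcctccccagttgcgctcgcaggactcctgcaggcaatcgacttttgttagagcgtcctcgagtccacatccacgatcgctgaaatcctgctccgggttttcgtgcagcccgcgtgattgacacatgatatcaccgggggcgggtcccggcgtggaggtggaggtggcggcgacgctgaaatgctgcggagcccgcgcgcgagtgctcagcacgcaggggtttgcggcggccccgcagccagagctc
Spry2, chr14:105896770-105897069, minus strand: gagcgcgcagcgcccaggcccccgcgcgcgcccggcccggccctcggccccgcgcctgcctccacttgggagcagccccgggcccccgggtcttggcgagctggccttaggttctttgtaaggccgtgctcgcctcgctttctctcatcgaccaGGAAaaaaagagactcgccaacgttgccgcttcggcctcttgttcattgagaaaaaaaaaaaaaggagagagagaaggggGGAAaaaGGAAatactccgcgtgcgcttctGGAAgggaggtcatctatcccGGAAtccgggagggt
Dusp6, chr10:99262981-99263280, plus strand: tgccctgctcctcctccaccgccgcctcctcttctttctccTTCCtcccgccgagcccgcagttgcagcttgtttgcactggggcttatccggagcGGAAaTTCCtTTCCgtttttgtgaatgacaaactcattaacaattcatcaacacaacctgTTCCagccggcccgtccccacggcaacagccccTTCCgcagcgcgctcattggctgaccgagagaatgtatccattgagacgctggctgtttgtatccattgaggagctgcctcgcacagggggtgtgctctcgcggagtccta
The Spry1 window holds 1 such match, that of Spry2 holds 5 and that of Dusp6 holds 6. At least 1 match on either strand is present in 96% of 32851 promoters of this length, so its presence is no mark of these genes. The longer ETS-type letters CGGAAG, which contain GGAA, were found on either strand in the promoters of Spred1, Spred2 and Dusp6, that is, in 3 of 10 windows, against 16.9% of all promoters. Neither the AP-1 letters TGACTCA (5.2% of promoters) nor the CRE letters TGACGTCA (1.79%) occurred in the 10 windows. Matches are a description of the letters only.

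Other genes of the pathway were taken from lists that were written with earlier results of these data known. Among 16 further ERK feedback genes and targets, 9 were tested and 1 passed, Ccnd1 (cyclin D1), which was higher in ULAs. Ccnd1 was at 6.57, 5.68 and 5.15 RPKM in ULAs and at 4.18, 3.05 and 2.99 in DLAs, without overlap (log2 fold change 0.63, SE 0.13, adjusted p = 0.0484). This call is close to the threshold and was lost in 7 of 12 alternatives, with an adjusted p of 0.0188 to 0.367. In this list 4 genes had an unadjusted p under 0.05. Mcl1, an anti-apoptotic gene, had the largest fold change of the list in the other direction (−0.62, SE 0.19, adjusted p = 0.152). Mcl1 passed without brain 2 (0.0327) and without brain 3 (0.0423). Without brain 1 its log2 fold change was −0.35 (adjusted p = 0.832). The list's median was 0.07. Spry3, the Sprouty gene that is not among the 10, was listed at 0 in all 6 libraries.

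Of 18 genes listed as FGF ligands, receptors and adaptors, 13 were tested, with a median of 0.08. Only Fgfbp3 passed, a secreted protein that binds FGFs, and it was lower in ULAs (4.81, 1.26 and 4.62 RPKM against 11.24, 5.29 and 10.34, log2 fold change −1.19, SE 0.14, adjusted p = 0.00378). This call was lost when the brains were ignored (adjusted p = 0.382) and with no filter on low RPKM (0.301). In this list 5 genes had an unadjusted p under 0.05, among them the receptors Fgfr1, Fgfr2 and Fgfr3, which are named here after their values were seen and which were higher in ULAs in 3 of 3 brains. Fgfr3, the main FGF receptor mRNA of these cells, was at 334.18, 275.59 and 297.16 RPKM against 244.65, 207.02 and 229.21, without overlap. It differed by 0.41 on the log2 scale (SE 0.09, adjusted p = 0.057). Of 13 alternatives it passed in 6, among them those without brain 2 (0.0499) and without brain 3 (0.0178). It did not pass in the other 7, and its adjusted p-values were 0.0178 to 0.562 over the alternatives. Fgfr2 was at 0.32 (SE 0.11, adjusted p = 0.184, and 0.0394 without brain 3) and Fgfr1 at 0.30 (SE 0.10, adjusted p = 0.175). Fgf14, an intracellular FGF, was at 0.59 (SE 0.17, adjusted p = 0.134) and passed without brain 3 (adjusted p = 0.00145, log2 fold change 0.85). All 23 listed genes of the Ras to ERK cascade were tested and none passed, with a median of 0.01 and 3 at an unadjusted p under 0.05. The largest of these fold changes were 0.39 for the kinase gene Rps6ka1 (adjusted p = 0.283) and 0.37 for Rasa2, a GTPase-activating protein (adjusted p = 0.15), which passed without brain 3 (0.0101).

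Among 14 other ETS factors and Capicua, 8 were tested and none passed, with 1 at an unadjusted p under 0.05 and a median of 0.14. Etv6 and Elk4 had the largest fold changes of this list, 0.28 (adjusted p = 0.295) and 0.25 (adjusted p = 0.485). Of the 16 immediate early genes, 9 were tested, with a median of −0.05 and 1 at an unadjusted p under 0.05. Jund, which encodes an AP-1 subunit, passed and was lower in ULAs, at 4.55, 0.71 and 5.87 RPKM against 13.76, 2.2 and 9.95 (log2 fold change −1.0, SE 0.16, adjusted p = 0.0148). Jund was low in both layers of brain 2, and its adjusted p was 0.611 when the brains were ignored and 0.383 with no filter. The next largest fold change was −0.15 for Ier2 (adjusted p = 0.641). Without the brain as a term, limma called 0 genes of these 5 lists, against 3 with it, and 6 had an unadjusted p under 0.05, against 14 with it.

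**Figure D4:**
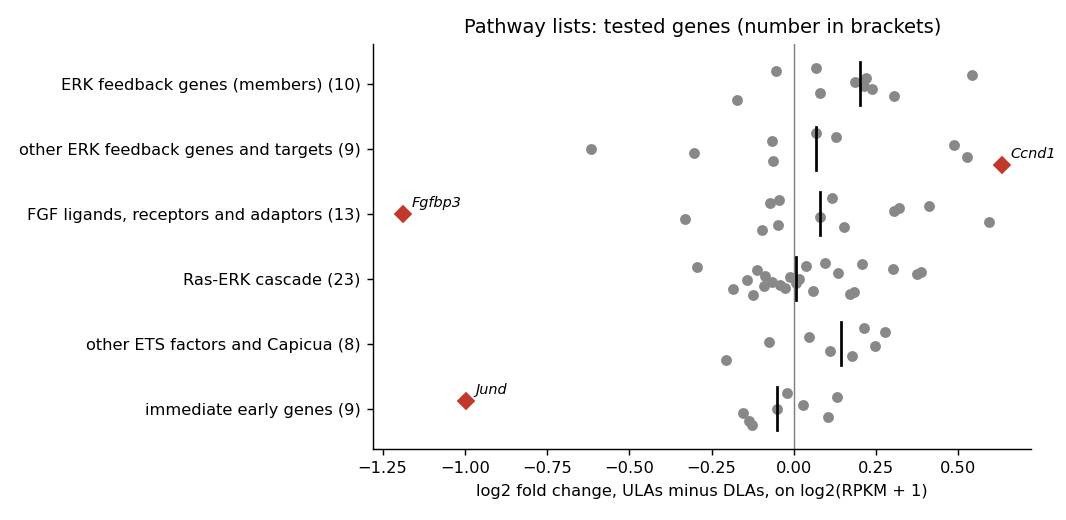
Log2 fold change (ULAs minus DLAs, on log2(RPKM + 1)) of the tested genes of each pathway list, with the number tested in brackets. Gray circles did not pass, red diamonds passed at an adjusted p under 0.05 and are named (Ccnd1, Fgfbp3, Jund), and black lines are medians, 0.20 for the ERK feedback genes.

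The 6-library pattern of Spry1, the gene with the largest fold change, was matched most closely by those of Calb2 (calretinin), Adamts16 (a secreted metallopeptidase) and Rab33a (a small GTPase). Likeness was the root mean square difference of the log2 values after the mean of each gene was removed, over 6 libraries. It was 0.108 for Calb2, 0.247 for Adamts16 and 0.260 for Rab33a, where the median RefSeq row was at 0.629. Calb2 had 3.39, 4.19 and 8.11 RPKM in ULAs and 1.94, 3.19 and 6.45 in DLAs, and thus ranked the brains as Spry1 did within each layer. Its log2 fold change was 0.39 (adjusted p = 0.202). Those of Adamts16 and Rab33a were 0.29 (adjusted p = 0.433) and 0.27 (adjusted p = 0.297).

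Across the libraries, the depth was 24.45 to 26.68 M reads in ULAs and 19.66 to 29.56 M reads in DLAs, and the 10 genes rested on 159 to 9692 reads each. Astrocyte markers were abundant (summed RPKM of 10 markers from 10685 to 12233). All 10 were tested and 1 passed, Gfap, which was lower in ULAs (log2 fold change −0.93, adjusted p = 0.00556). Markers of other cells were present at lower levels, and in bulk RNA fewer cells of a type and less RNA per cell cannot be told apart. Of 10 oligodendrocyte markers, 9 were tested and 7 were lower in ULAs. Sprouty and Etv genes are also expressed by oligodendrocyte precursors. Of 10 precursor markers, 2 (Olig1 and Olig2) were tested and 0 passed, the sum was 86.3 to 97.3 RPKM in ULAs and 98 to 135.2 in DLAs, and Pdgfra and Cspg4 were below a mean of 1 RPKM. Sums for microglia (8 markers, 1 tested, 0 passed) were 13.6 to 14.7 RPKM in ULAs and 9 to 12.1 in DLAs, and for endothelial cells (8 markers, 0 tested) 0.75 to 1.32 and 0.44 to 3.15. Of 8 mural and fibroblast markers, 3 were tested and Rgs5 was higher in ULAs, with sums of 18.6 to 26.9 and 16.4 to 23.9 RPKM. Of 7 upper-layer neuron markers, 4 were tested and 0 passed, with sums of 144.7 to 165.1 and 111.1 to 185.5 RPKM. The part of these cells in the levels of the 10 genes was not tested.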

How the data were processed

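The authors isolated RNA from sorted cells, amplified cDNA with the SMART-Seq v4 kit, prepared Nextera XT libraries and sequenced single reads of 36 bases. They deposited RPKM values, with the length of each mRNA model as another column. Per the submitters' processing notes, bcl2fastq 1.8.4 and CASAVA 1.8.2 were used with build mm9. The aligner and counting program are not given in the sources used here. Values were cut at 2 decimals, first after scaling to depth and then after division by length. Depth was read back from these steps in mRNAs of at most 500 bases, where 100% of the values used equaled a whole number of reads cut in the same way.

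Rows with a mean of at least 1 RPKM over the 6 libraries were compared on log2(RPKM + 1) with limma 3.58.1 in R 4.3.3 (eBayes with trend, brain and layer as terms, 2-sided p, Benjamini-Hochberg adjustment). Replicate numbers were taken as brains, since same-numbered libraries deviated together (r across genes of 0.42, 0.33 and 0.34, against −0.20 to −0.16 otherwise). The fit was tested on simulated data. Counting intervals were exact binomial (95%, scipy 1.17.1). Alternatives were no brain term, a pseudocount of 0.1, no filter, a mean of at least 5 RPKM, quantile normalization, median centring, leaving out each brain, length correction (loess, span 0.5), no trend, an adjusted p under 0.1 and, added later, RefSeq rows only.

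Named genes are the 10 members, the passing genes and the 2 with the largest fold change of each pathway list, and the 3 rows most like the member with the largest fold change. Other genes, such as the FGF receptors, were named after their values were seen. The members and lists were chosen with earlier results of these data known.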

Additional observations from a re-analysis of the deposited data

How the results depend on the processing

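Of 129 values of the 10 genes under the alternatives, 121 kept their direction and their side of the threshold. This count is no measure of stability. Changes to the brain term, the filter, the trend, the rows tested or the threshold leave each fold change as it was. The direction could not turn in those settings, and with 0 genes passing in the main fit no call could be lost. Spry1 passed in 3 settings and Dusp6 in 1. The sign turned for Spry2 under quantile normalization (0.026), for Spry4 after length correction (−0.038), and with a brain left out for Spry2 (range −0.24 to 0.086) and Spred2 (range −0.078 to 0.39), none of which was called. With a brain left out, 0 to 1 of the 10 genes were higher in ULAs and 0 to 1 were higher in DLAs, in both cases 1 without brain 3. Testing RefSeq rows only (11475 rows), or an adjusted p under 0.1, gave 1 gene higher in ULAs. With a mean of at least 5 RPKM (8911 rows) Spry1 did not pass (adjusted p = 0.0649, limma).

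Over all rows, 100 were higher in ULAs and 128 in DLAs. Without the replicate block (the pairing by brain) these became 23 and 18. With no filter they were 0 and 0 (limma, 27963 rows tested, of which 1124 and 1675 had an unadjusted p under 0.05). They were 64 and 83 after length correction, 65 and 79 without the trend, and 209 and 255 at an adjusted p under 0.1. With 1 brain left out they were 104 to 426 and 126 to 687, and for RefSeq rows 154 and 178. The unpaired fit changed no call of the 10 genes. Genes that passed in the 5 pathway lists numbered 3, and 0 without the replicate block or the filter (limma, 6 and 16 at an unadjusted p under 0.05), 2 to 8 with a brain left out, and 5 for RefSeq rows or at an adjusted p under 0.1. Where no reason is given, the cause was not tested. Depth limits Spry1 and Spred3 most, which rest on as few as 159 and 170 reads.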

Other observations

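Il17rd, which encodes the membrane-bound FGF antagonist Sef and was named after its values were seen, belongs to the list of further ERK feedback genes but averaged 0.893 RPKM and so fell below the filter. ULAs had 1.11, 1.01 and 1.73 RPKM and DLAs had 0.4, 0.38 and 0.73 (brains 1, 2 and 3), on 61 to 379 reads per library. The 3 ULA values lay above the 3 DLA values, and the within-brain ratio was 2.60 ± 0.208 (SD, n = 3). In the fit with no filter its log2 fold change was 0.60 (SE 0.11, unadjusted p = 0.0039, adjusted p = 0.373, limma), where 0 of 27963 rows passed. Like Spry1 it was highest in brain 3 in both layers.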
